A study of Caenorhabditis elegans with 12 samples.

Results

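Messenger RNA of Caenorhabditis elegans larvae carrying the mutation unc-120(st364) (strain RW364) was compared with that of the N2 wild type. Each group had 4 libraries, made from whole larvae that had reached the third larval stage at 15 °C with E. coli as food. The series asks whether a formin and the worm serum response factor act on striated muscle development by separate routes, and 4 libraries of the formin mutant fhod-1(tm2363) (strain XA8001), also grown to that stage at that temperature, entered the fits only to estimate the spread. Groups follow the genotype labels, since another label, the source name, attaches the mutant strain names the other way round. The labels give neither the lesion of the allele nor the number of larvae in a sample, and do not say whether the samples of a group came from separate cultures. The p-values therefore measure the spread between these samples, which may be technical. Of the 23515 genes in the deposited table, 5617 reached a level of 10 in 4 or more of the 8 libraries, and these are described.

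Serum response factor is a transcription factor of the MADS-box family that binds CArG elements, and in vertebrates it drives genes of the actin cytoskeleton and of muscle. UNC-120 is its C. elegans form. It acts with the bHLH factors HLH-1 and HND-1 to specify body-wall muscle, the striated muscle that lies under the hypodermis and moves the animal.

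Levels are the deposited values, which are scaled for gene length and proportional to TPM, and every library had the same total, 638200. Between 19400 and 20143 genes were above 0 in a library, and the 10 most abundant genes took 7.46% to 12.6% of its total. The libraries differed along gene length. The slope of a library's log2 levels on log2 exonic length, relative to the mean of all libraries, was -0.05, -0.33, 0.17 and 0.18 in unc-120(st364) replicates 1 to 4 and -0.05, 0.07, 0.14 and -0.16 in wild-type replicates 1 to 4. The groups overlapped in this slope, and it spread the libraries within each group. Fold changes are log2 differences of level + 1, unc-120(st364) over wild type. Calls required an adjusted p below 0.05 (Benjamini-Hochberg) in limma, a linear model fitted over all 5617 genes. A second fit used levels corrected for length, and its values are given for part of the genes that differed in call. A deposited p given alone does not mean that the gene was also called after correction.

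In unc-120(st364) larvae 42 genes were called, which is 0.748% of those tested. Of these, 12 were higher (0.214%) and 30 were lower (0.534%). The changes were at least 2-fold for 5 of the rises and 15 of the falls, and 41 of the 42 genes encode proteins. In all 42 the 4 unc-120(st364) libraries lay on 1 side of the 4 wild-type libraries, a pattern found in 183 of all genes tested (3.26%). After length correction 98 genes were called (1.74%), 33 higher (0.588%) and 65 lower (1.16%), and 40 of the 42 were among them with the same direction. The median fold change of all genes tested was -0.01. Of the 42 calls, 16 held in each of the 8 fits that left out 1 library. The number called was 16 without wild-type replicate 2, 21 without wild-type replicate 3 and 22 without unc-120(st364) replicate 3 or replicate 4. After length correction 33 of the 42 held in each such fit.

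**Figure D1:**
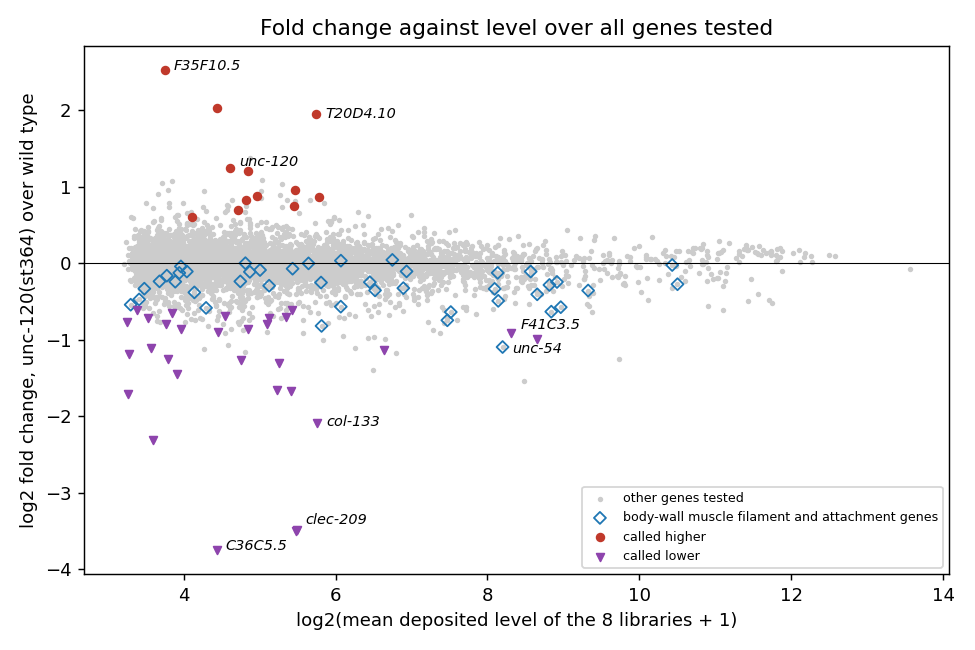
Log2 fold change of unc-120(st364) over wild type (vertical axis) against log2 of the mean deposited level + 1 of the 8 libraries (horizontal axis), 1 point per gene tested. Red circles are the 12 genes called higher, purple triangles the 30 called lower, and open blue diamonds the 42 tested body-wall muscle filament and attachment genes, 39 of which lie below 0.

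The transcript of the mutated gene itself was higher in the mutant. On chromosome I, unc-120 (WBGene00006844, 8460225 to 8463015, WBcel235) had levels of 28.2, 25.6, 37.0 and 43.1 in the unc-120(st364) libraries, against 9.63, 15.2, 13.1 and 15.9 in the wild-type libraries. Every unc-120(st364) library was above every wild-type library. The unc-120(st364) mean was 33.5 ± 8.04 and the wild-type mean 13.5 ± 2.81 (SD, n = 4 each), a log2 difference of 1.25 (SE 0.18; adjusted p = 0.00352, limma). The call held in all 20 alternative fits that included the gene. An annotated gene on the other strand, D1081.17, overlaps it. The partner factors of muscle fate did not pass the filter and were not tested. The level of hlh-1, the MyoD ortholog, ran from 2.73 to 3.85 in unc-120(st364) and from 2.48 to 3.39 in wild type. For hnd-1 the unc-120(st364) libraries averaged 0.037 and the wild-type libraries 0.020. The MADS-box gene mef-2 passed the filter and averaged 11.01 in unc-120(st364), against 9.18 in wild type, with a log2 fold change of 0.22 that limma did not call.

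The body-wall muscle genes lay mostly below 0 in the mutant, with 3 myosin and paramyosin genes the clearest among them. Whole larvae were sequenced, so fewer cells of a type and less RNA per cell cannot be told apart, here and in every other tissue. Of 51 genes of the thick filament, the thin filament and the attachment structures, 42 passed the filter and 39 of those had a fold change below 0, against 51.5% of all genes tested. Their median was -0.26. It was -0.36 when unc-120(st364) replicate 4 was left out and -0.13 when replicate 2 of that group was left out. Other tissues also lay mostly below 0: the intestinal list had a median of -0.25 with 15 of 20 tested genes below 0, and the germline list -0.21 with 7 of 8. Their part in the muscle result was not tested. None of the 42 was called by limma on the deposited levels. An unadjusted p under 0.05 was found for 9 of them, all lower, where 6.8% of all genes tested reached such a p in either direction and 236 (4.2%) did so with a lower level. After length correction 5 were called lower, against 65 of all genes tested (1.16%). On corrected levels 13 had all 4 unc-120(st364) libraries below all 4 wild-type libraries, against 221 of all genes (3.93%) and 7.26% in either direction. None lay wholly above.

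Of the 10 thick-filament genes 7 were tested and all 7 were below 0, with a median of -0.54 and of -0.48 after length correction. The deposited median was -0.28 without unc-120(st364) replicate 2 and -0.33 without wild-type replicate 3. The major body-wall myosin heavy chain, unc-54 (WBGene00006789, chromosome I, 14855901 to 14863573), had levels of 144.6, 114.4, 265.6 and 231.3 in unc-120(st364), against 375.4, 524.6, 442.0 and 245.6 in wild type. On these values wild-type replicate 4 lay within the range of the mutant. Its slope on length was the lowest of the wild-type libraries. After length correction the levels of unc-54 were 158.8, 212.9, 199.4 and 177.5 in unc-120(st364), against 405.8, 456.4, 336.5 and 351.7 in wild type, and the groups no longer overlapped. The log2 fold change was -1.09 (SE 0.31) on deposited levels, where limma gave an adjusted p of 0.201. It was -1.04 (SE 0.13) after the correction, where limma gave an adjusted p of 9.28e-04.

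**Figure D2:**
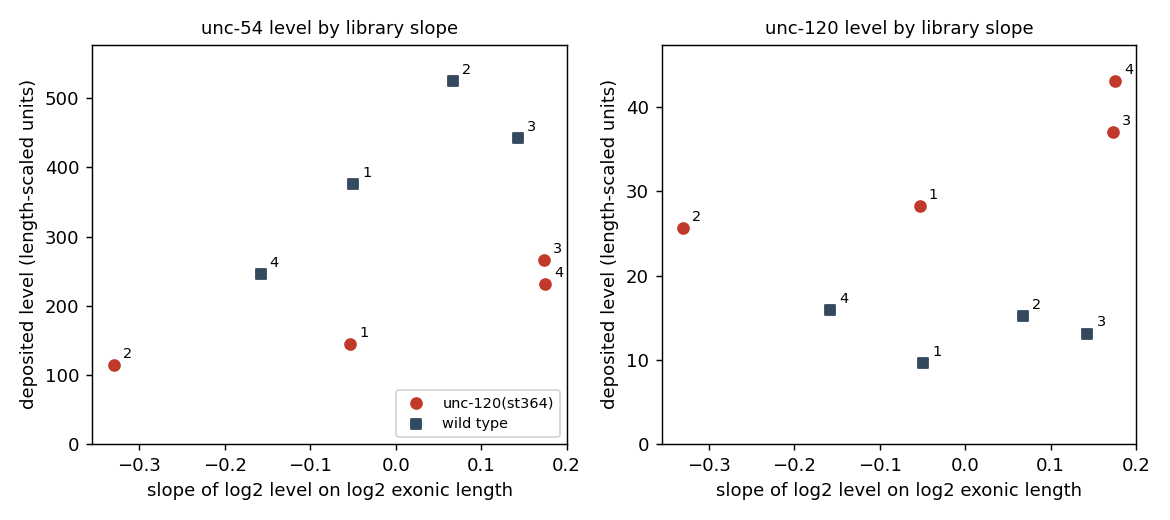
Deposited level of unc-54 (left) and of unc-120 (right) in each library, against the slope of the library's log2 levels on log2 exonic length. Red circles are unc-120(st364), dark squares are wild type and the numbers are replicates. In each group the 2 libraries with the lowest slopes have the 2 lowest levels of unc-54, and at a like slope the unc-120(st364) libraries lie below the wild-type ones, whereas for unc-120 they lie above.

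The other 3 thick-filament genes that were called after length correction had the same form, an overlap on deposited levels that was gone on corrected ones. The second body-wall myosin heavy chain, myo-3, averaged 40.1 ± 14.4 in unc-120(st364), against 70.6 ± 21.5 in wild type (SD, n = 4 each), and its length-corrected log2 fold change was -0.77 (SE 0.11; adjusted p = 0.00186, limma). Paramyosin, unc-15, the core protein of the thick filament, averaged 134.0 ± 46.7 in unc-120(st364), against 219.1 ± 51.5 in wild type, and its length-corrected log2 fold change was -0.71 (SE 0.12; adjusted p = 0.00787, limma). Twitchin, unc-22, a giant kinase of the thick filament, averaged 7.13 ± 3.79 in unc-120(st364), against 10.6 ± 4.92 in wild type, and its length-corrected log2 difference was -0.48 (SE 0.10; adjusted p = 0.0385, limma). The corrected calls of unc-54, myo-3 and unc-15 held without each library in turn and with the 8 libraries alone, where the limma adjusted p was 0.00984, 0.0122 and 0.0292. That of unc-22 did not, with a limma adjusted p of up to 0.120 without unc-120(st364) replicate 3. The myosin light chains mlc-1, mlc-2 and mlc-3 were at -0.36, -0.02 and -0.24 on the log2 scale and were not called. The chaperone unc-45 and the giant proteins unc-89 and ttn-1 did not pass the filter.

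**Figure D3:**
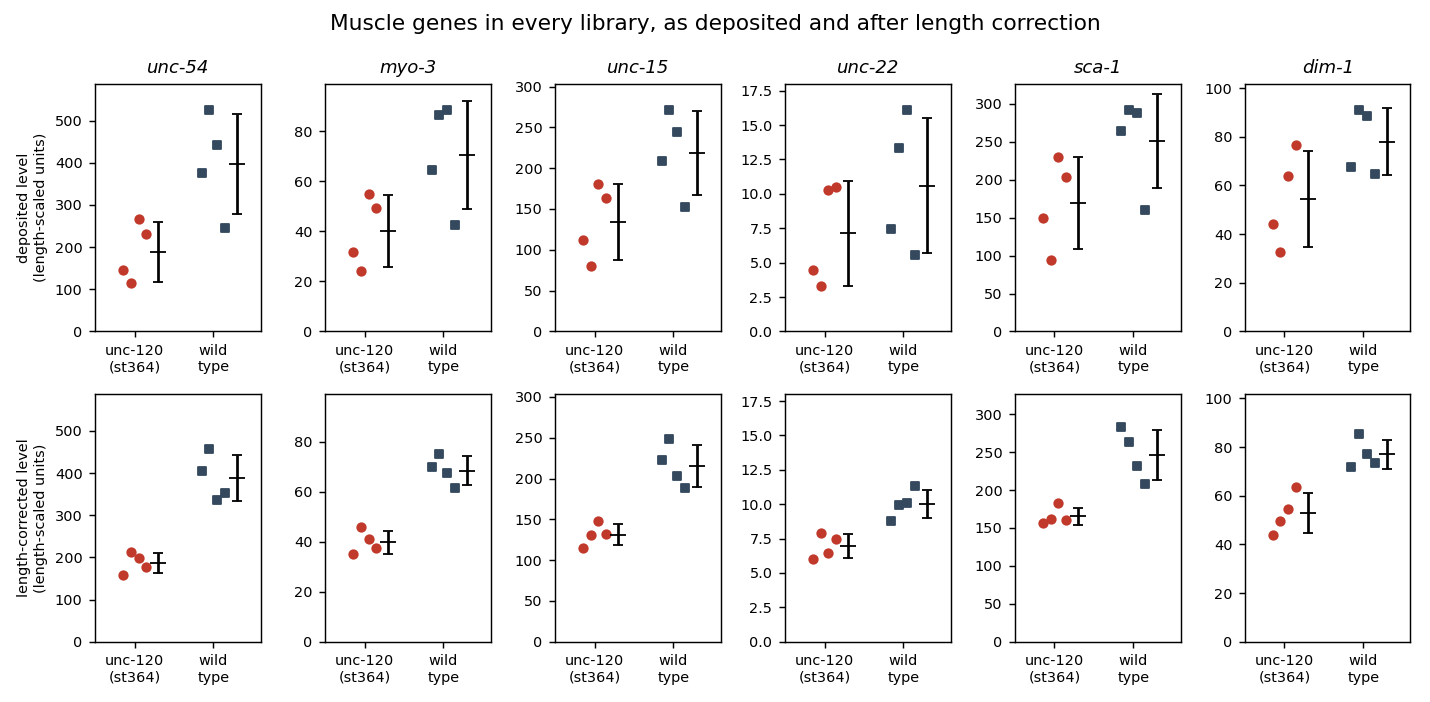
Levels of 6 muscle genes in every library, as deposited (top row) and after length correction (bottom row), unc-120(st364) in red on the left and wild type in dark blue on the right of each panel. Bars show the mean and SD of 4 libraries. The groups overlap for each gene on deposited levels and do not overlap after length correction.

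Among the thin-filament genes 15 of the 17 tested were below 0, with a median of -0.32, which was -0.15 without unc-120(st364) replicate 2, and none was called. The muscle actin act-1 had levels of 328.7, 243.5, 436.4 and 448.3 in unc-120(st364), against 548.8, 610.1, 563.0 and 480.4 in wild type, and did not overlap between the groups. Its log2 fold change was -0.63 (limma adjusted p = 0.335, and 0.0862 after length correction). The actin act-3 did not overlap either, with 271.7 to 488.7 in unc-120(st364) and 517.7 to 654.0 in wild type, and reached a limma adjusted p of 0.0535 after length correction. These actin genes are close copies of each other, so reads shared between them may not have been separated. The troponin T genes tnt-2 and mup-2 were at -0.64 and -0.49, tropomyosin lev-11 at -0.32 and troponin C pat-10 at -0.27, and none of these was called in either fit. The 2 members above 0 were the subunits of actin capping protein, cap-1 and cap-2, each at 0.04.

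The attachment genes, which anchor the filaments to the membrane through integrin, had 17 of 18 tested members below 0 and a median of -0.20, which was -0.04 without unc-120(st364) replicate 2. The integrin subunits pat-2 and pat-3 were at -0.09 and -0.07, and deb-1, the worm vinculin, at -0.11. The immunoglobulin-domain gene dim-1 averaged 54.4 ± 19.6 in unc-120(st364), against 77.9 ± 13.8 in wild type. It was the single member called after length correction, at -0.54 (SE 0.11, limma adjusted p = 0.0312). The LIM-domain gene alp-1, an ALP/Enigma protein of dense bodies, was at -0.58 and was not called in either fit. Of the calcium and excitation genes only 6 of 17 were tested. The calcium pump of the sarcoplasmic reticulum, sca-1, averaged 169.2 ± 60.5 in unc-120(st364), against 251.1 ± 61.7 in wild type and was called after length correction at -0.57 (SE 0.11, limma adjusted p = 0.0239). The calls of dim-1 and sca-1 were lost with the 8 libraries alone, at limma adjusted p-values of 0.105 and 0.0743, and both were lost without wild-type replicate 2, at 0.105 and 0.0869. Calsequestrin csq-1 was at -0.25 and junctophilin jph-1 at 0.02. Of the dystrophin complex 3 of 9 genes were tested, at 0.01 to 0.10, and none was called.

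The pharynx is a separate muscle with its own myosins. Its 6 tested genes had a median of -0.03 on deposited levels and 0.01 after length correction, and none was called. The deposited median was -0.28 without unc-120(st364) replicate 4, -0.28 without wild-type replicate 1, -0.22 without unc-120(st364) replicate 3 and 0.175 without unc-120(st364) replicate 2. The pharyngeal myosins myo-1 and myo-2 were at -0.17 and -0.30, with ranges of 11.7 to 44.1 and 13.0 to 48.8 in unc-120(st364) and of 17.3 to 39.1 and 22.4 to 47.9 in wild type. The difference between pharyngeal and body-wall genes was not tested. The worm orthologs of genes that SRF drives in mammals, 24 of 25 tested, were below 0 in 18 cases with a median of -0.17, and none was called in either fit. That median was 0.003 without unc-120(st364) replicate 2, -0.06 without wild-type replicate 3 and -0.32 without unc-120(st364) replicate 3. The genes act-1, act-2, act-3, act-4, lev-11, unc-87, unc-60, deb-1, atn-1, zyx-1, tln-1 and pat-3 also belong to the thin-filament and attachment lists. All of these were below 0, so the lists are not separate results. Of the members in neither list, act-5, gsnl-1, egrh-1, fln-1, cpn-1 and cpn-3 were below 0. The 6 above 0 were fln-2, cpn-2, cpn-4, mlc-4, nmy-1 and nmy-2.

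**Figure D4:**
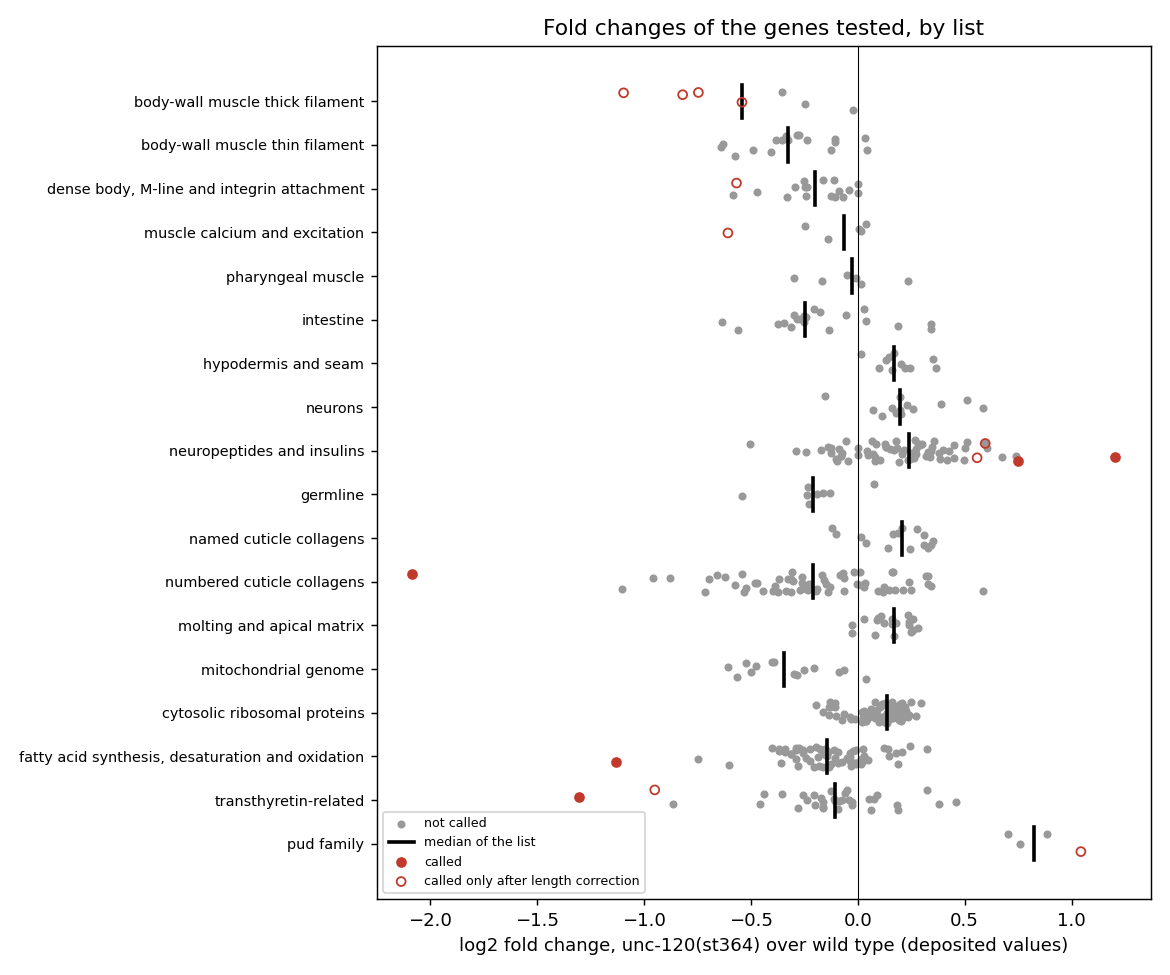
Log2 fold change of unc-120(st364) over wild type on deposited levels for the tested members of 18 gene lists, 1 point per gene. Black bars are list medians, filled red points genes called and open red circles genes called only after length correction. The body-wall muscle lists lie mostly below 0, with medians of -0.54, -0.32 and -0.20, as do the intestine and germline lists, with medians of -0.25 and -0.21, and the hypodermis, neuron and neuropeptide lists lie mostly above it.

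Of the 12 genes called higher, 2 encode FMRFamide-like neuropeptides. The level of flp-2 (WBGene00001445, chromosome X, 10094430 to 10095245) was 30.1, 35.1, 44.4 and 47.4 in unc-120(st364), against 14.8, 15.9, 16.1 and 18.2 in wild type. Every unc-120(st364) library exceeded every wild-type one. The log2 fold change of flp-2 was 1.204 (SE 0.15, limma adjusted p = 0.00108). The level of flp-19 was 52.2, 60.3, 50.5 and 52.7 in unc-120(st364), against 28.02, 30.7, 28.8 and 40.2 in wild type, a log2 difference of 0.75 (SE 0.15; adjusted p = 0.0323, limma). Its groups did not overlap. Its call was lost in 7 of the 8 fits that left out 1 library, with a limma adjusted p of up to 0.120 without wild-type replicate 2, and held in each such fit after length correction.

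The neuropeptide and insulin-like genes as a whole lay mostly above 0. Of 126 such genes 72 were tested, and 57 were above 0 with a median of 0.24, where the median of all genes was -0.01. Without unc-120(st364) replicate 2 the list median was 0.09, and that of all genes was 0.07. The list median was 0.13 without wild-type replicate 3. An unadjusted p under 0.05 was found for 21 higher and 1 lower, against 146 higher (2.6%) and 236 lower (4.2%) among all genes tested. In 10 of them every unc-120(st364) library exceeded every wild-type one, and in none the reverse, where 70 of all genes (1.25%) were wholly higher and 113 (2.01%) wholly lower. After length correction the insulin-like gene ins-27 and the neuropeptide-like gene nlp-3 were called as well. The gene ins-27 averaged 70.4 ± 12.9 in unc-120(st364), against 46.9 ± 2.53 in wild type. The gene nlp-3 averaged 74.8 ± 7.74 in unc-120(st364), against 49.9 ± 12.1 in wild type. Without unc-120(st364) replicate 3 the limma adjusted p was 0.115 for ins-27 and 0.103 for nlp-3. Levels in the fhod-1(tm2363) libraries, set against the same wild-type libraries, averaged 29.6 for flp-2, 53.8 for flp-19 and 84.6 for nlp-3. The neuron list, 13 of 30 tested, had 12 genes above 0 and a median of 0.20, which was 0.12 without unc-120(st364) replicate 4. None of it was called. The synaptic vesicle GTPase rab-3 was at 0.51 and the glutamate decarboxylase unc-25, which makes GABA, at 0.58. The summed level of the neuron list was 760.2 to 1044 in unc-120(st364) and 746.2 to 820.5 in wild type, and its part in the neuropeptide result was not tested.

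Of the secreted regulators of growth, unc-129, a TGF-beta ligand made by dorsal body-wall muscle that guides motor axons, rose. Its levels were 33.6, 26.9, 31.2 and 34.8 in unc-120(st364), against 17.8, 19.8, 17.4 and 21.2 in wild type. The groups did not overlap, and the log2 fold change was 0.70 (SE 0.13; adjusted p = 0.0284, limma). The limma adjusted p reached 0.109 without unc-120(st364) replicate 4, but at most 0.00817 in the length-corrected fits that left out 1 library. A list of 18 genes of TGF-beta signalling and body size held the body-size ligand dbl-1 and its pathway, genes of the separate dauer branch such as daf-7, and the spectrin sma-1. Of its 9 tested genes 7 were above 0. Only lon-1, which the body-size pathway represses and which limits body length, was called, and only after length correction, at 0.52 (SE 0.11, limma adjusted p = 0.0339). Without unc-120(st364) replicate 3 its limma adjusted p was 0.115. It averaged 33.5 ± 4.93 in unc-120(st364), against 23.2 ± 2.62 in wild type. The ligand dbl-1 was at 0.25 and the dauer ligand daf-7 at 0.53, and neither was called.

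The remaining rises with a known function were metabolic. The asparagine synthetase gene asns-2 had levels of 74.2, 50.8, 76.1 and 80.2 in unc-120(st364), against 29.1, 44.5, 39.5 and 38.2 in wild type. Its log2 fold change was 0.87 (SE 0.18; adjusted p = 0.0365, limma), and the call was lost in 7 of the 8 fits that left out 1 library, with up to 0.139 without unc-120(st364) replicate 4. Its length-corrected levels were tighter, 67.8 to 72.9 in unc-120(st364) and 31.0 to 42.4 in wild type, for a log2 difference of 0.89 (SE 0.11; adjusted p = 8.17e-04, limma). The cysteine synthase-like gene cysl-3 had levels of 37.7, 39.1, 38.5 and 42.0 in unc-120(st364), against 19.5, 22.7, 22.1 and 19.3 in wild type. Its log2 difference was 0.88 (SE 0.11; adjusted p = 9.16e-04, limma). It lies in the stretch of chromosome V from 2 to 4 Mb that is described below. The cytochrome P450 gene cyp-14A5 rose by 0.83 on the log2 scale (SE 0.15, limma adjusted p = 0.0190), with 29.2 to 41.6 in unc-120(st364) and 14.9 to 23.2 in wild type. The uncharacterised genes F07C3.2 and F10C1.8 rose by 0.96 and 0.60. The call of cyp-14A5 was lost in 5 of the 8 fits that left out 1 library, with a limma adjusted p of up to 0.0728 without unc-120(st364) replicate 3, and that of F10C1.8 in all 8, with up to 0.130 without unc-120(st364) replicate 4. That of F07C3.2 was lost in 2, with up to 0.0716 without wild-type replicate 2. The 19 tested P450 genes and the 24 tested enzymes of amino acid metabolism each had a median of 0.05.

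The steepest changes in either direction lay close together on chromosome V. Within its stretch from 2 to 4 Mb, chosen after the calls were seen, 10 of 61 genes tested were called (16.4%), 4 higher and 6 lower. Elsewhere 32 of 5556 were called (0.576%), and in the rest of chromosome V 8 of 1043 (0.767%). A role of sequence differences between the strains in this stretch was not tested. C36C5.5 (WBGene00016474, chromosome V, 3157077 to 3157870) had levels of 2.12, 2.15, 1.41 and 1.89 in unc-120(st364), against 60.7, 33.1, 29.0 and 34.6 in wild type. This was the largest fall of all, at -3.75 (SE 0.24, limma adjusted p = 5.96e-07). The C-type lectin gene clec-209 (chromosome V, 2351676 to 2352932) had levels of 6.82, 4.92, 6.13 and 7.29 in unc-120(st364), against 96.2, 77.4, 81.0 and 69.1 in wild type, a log2 difference of -3.49 (SE 0.16; adjusted p = 1.33e-08, limma). F56A4.2 (chromosome V, 2459637 to 2460893) had the same exonic length and nearly the same values, 5.68 to 7.43 in unc-120(st364) and 67.8 to 96.0 in wild type. The reference gene table gives both the name clec-209, so they may be copies whose reads were not separated. Their neighbour F56A4.3 had 2.48 to 3.20 in unc-120(st364) and 14.1 to 28.3 in wild type, at -2.31 (SE 0.19, limma adjusted p = 1.06e-05).

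The rises of this stretch were as distinct. F35F10.5 (WBGene00018055, chromosome V, 3284929 to 3285792) had levels of 31.7, 19.0, 18.9 and 18.3 in unc-120(st364), against 3.01, 2.80, 3.32 and 2.46 in wild type. Its groups were several-fold apart, with a log2 difference of 2.53 (SE 0.20; adjusted p = 8.50e-06, limma), the largest rise. It overlaps str-64 on the same strand. T20D4.10 (chromosome V, 3400252 to 3401063) had levels of 137.2, 77.7, 64.85 and 58.96 in unc-120(st364), against 29.5, 16.9, 16.2 and 19.3 in wild type, a log2 difference of 1.95 (SE 0.27; adjusted p = 0.00174, limma). Its neighbour T20D4.12, 2452 bases away on the same strand, had 24.45 to 52.7 in unc-120(st364) and 5.02 to 12.5 in wild type, at 2.03 (SE 0.30, limma adjusted p = 0.00412). The 7 genes of the stretch whose levels are given here kept their calls in every alternative fit that included them. The calls of the stretch also include cysl-3, described above, and the pseudogene T28A11.6, described below. That of T28A11.6 did not hold in every fit that left out 1 library. In the fhod-1(tm2363) libraries the means were 8.56 for clec-209, 3.33 for F56A4.3, 19.2 for C36C5.5, 3.31 for F35F10.5 and 25.1 for T20D4.10. The 2 mutants are set against the same wild-type libraries.

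**Figure D5:**
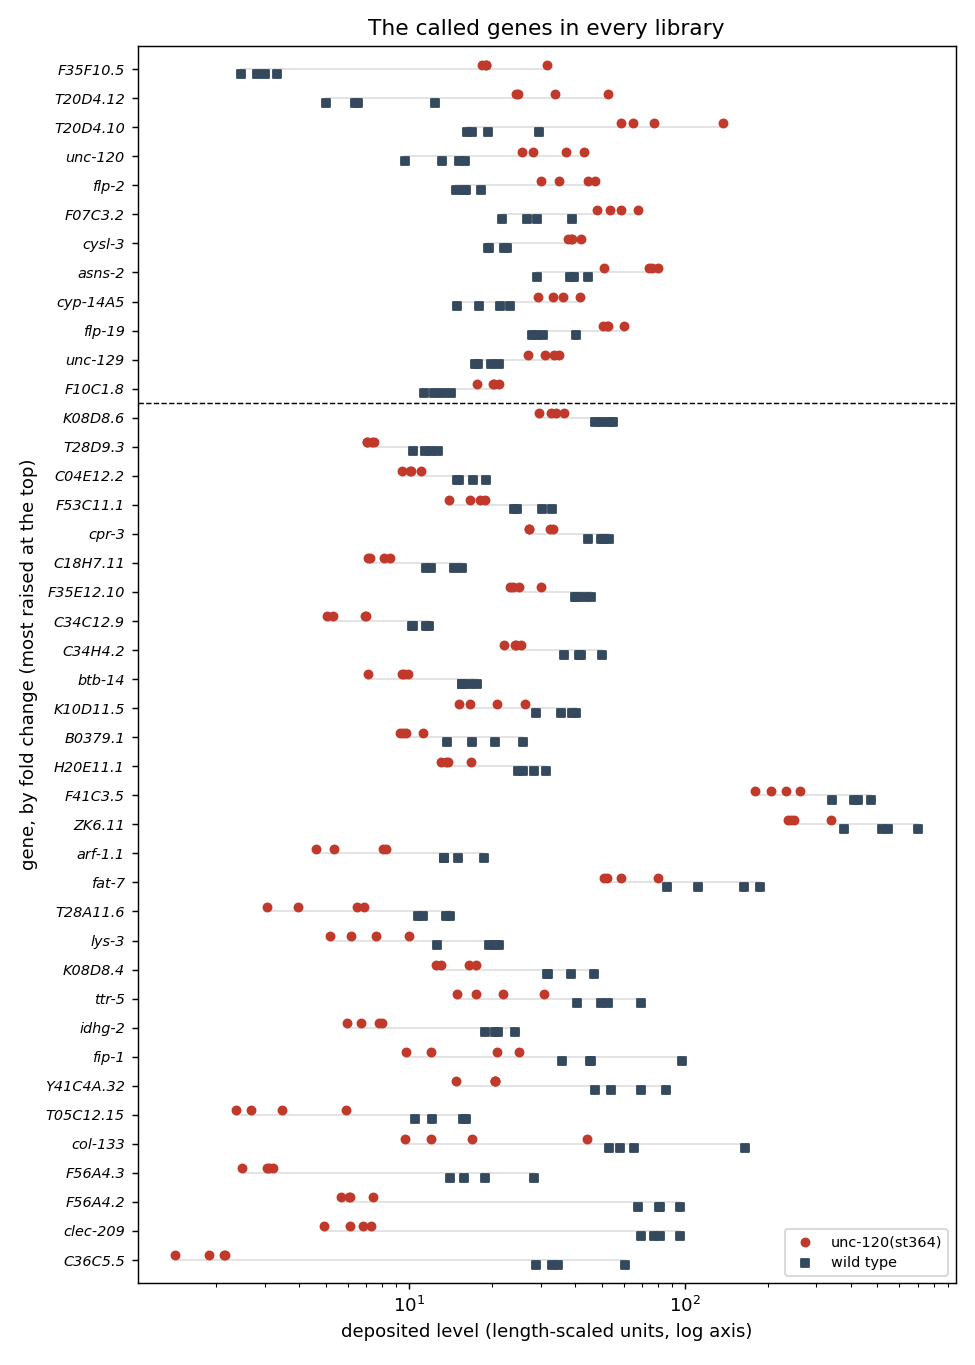
Deposited levels (log axis) of the 42 called genes in each library, with 12 rises above the dashed line and 30 falls below it. Red circles are the 4 unc-120(st364) libraries and dark squares the 4 wild-type libraries, which do not overlap in any of these genes. The span runs from C36C5.5 at about 2 in unc-120(st364) to ZK6.11, at 237.5 to 339.4 in unc-120(st364) and 378.9 to 703.4 in wild type.

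The gene idhg-2 (WBGene00016266, chromosome I, 6974558 to 6977100), a subunit of the NAD-dependent isocitrate dehydrogenase of the TCA cycle, had levels of 5.97, 8.01, 6.69 and 7.77 in unc-120(st364), against 18.9, 21.1, 20.4 and 24.2 in wild type. The log2 fold change of idhg-2 was -1.45 (SE 0.13, limma adjusted p = 2.93e-05), and it was called in all 20 alternatives. Of the 43 glycolysis and TCA genes tested no other was called, and their median was -0.07, which was 0.095 without unc-120(st364) replicate 2. The transthyretin-related gene ttr-5 had levels of 17.5, 30.9, 14.9 and 21.9 in unc-120(st364), against 52.7, 49.6, 40.6 and 69.6 in wild type, a log2 difference of -1.30 (SE 0.21; adjusted p = 0.00950, limma). A second member of that secreted family, ttr-47, was called after length correction at -0.96 (SE 0.13, limma adjusted p = 0.00179), with 33.0 to 60.0 in unc-120(st364) and 76.6 to 110.6 in wild type. Of the 35 family members tested, 26 were below 0 with a median of -0.10, which was -0.01 without unc-120(st364) replicate 3 and -0.22 without replicate 2 of that group. Further falls of at least 2-fold had the same clear separation. Y41C4A.32 had 14.8 to 20.6 in unc-120(st364) and 47.2 to 85.3 in wild type, at -1.67 (SE 0.20, limma adjusted p = 7.44e-04). T05C12.15, a short gene overlapped by T05C12.11 on the other strand, had 2.37 to 5.89 in unc-120(st364) and 10.53 to 16.04 in wild type, at -1.71 (SE 0.21, limma adjusted p = 9.16e-04). K08D8.4 had 12.5 to 17.4 in unc-120(st364) and 31.6 to 46.7 in wild type, at -1.26 (SE 0.16, limma adjusted p = 0.00118). These 3 genes were called in all 20 alternatives, whereas arf-1.1, which encodes a small GTPase of the ARF family, at -1.11, and the pseudogene T28A11.6, at -1.19, lost their calls in 4 and 5 of the 8 fits that left out 1 library, with limma adjusted p-values of up to 0.0851 and 0.119 without wild-type replicate 2. T28A11.6 lies in the stretch of chromosome V described above. In fhod-1(tm2363) idhg-2 averaged 21.7 and ttr-5 averaged 70.4, near or above the wild-type means of 21.2 and 53.1.

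The fatty acid desaturase fat-7 had 50.9 to 80.1 in unc-120(st364) and 86.2 to 187.0 in wild type and fell by 1.13 (SE 0.23, limma adjusted p = 0.0365), and the related desaturase fat-5, with 11.5 to 17.9 in unc-120(st364) and 21.5 to 31.99 in wild type, did not overlap but was not called at -0.75. The call of fat-7 was lost in 6 of the 8 fits that left out 1 library, with a limma adjusted p of up to 0.140 without wild-type replicate 3, and likewise in 6 of 8 on corrected levels. Of the 69 tested genes of fatty acid synthesis, desaturation and oxidation 54 were below 0 (median -0.14, and -0.03 without unc-120(st364) replicate 2). No other was called.

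The calls on deposited levels among lysozymes, antimicrobial peptides and lysosomal proteases were falls. The lysozyme gene lys-3 had 5.18, 10.03, 7.59 and 6.14 in unc-120(st364), against 12.7, 19.4, 20.5 and 21.1 in wild type, a log2 difference of -1.25 (SE 0.23; adjusted p = 0.0190, limma). Its call was lost in 6 of the 8 fits that left out 1 library, with a limma adjusted p of up to 0.0793 without wild-type replicate 2. Other lysozymes were on the other side and were not called: lys-7 at 1.09, with 27.7 to 59.1 in unc-120(st364) and 12.5 to 28.6 in wild type, and lys-10 at 1.08, with 13.9 to 27.98 in unc-120(st364) and 3.54 to 13.3 in wild type. The fungus-induced peptide gene fip-1 fell by 1.66 (SE 0.34, limma adjusted p = 0.0357), with 9.72 to 25.1 in unc-120(st364) and 35.8 to 97.9 in wild type, but its limma adjusted p was 0.132 without unc-120(st364) replicate 4. The protease gene cpr-3, of the cathepsin B type, fell by 0.70 (SE 0.12, limma adjusted p = 0.0139), and F41C3.5, at 179.4 to 262.0 in unc-120(st364) and 341.3 to 475.5 in wild type, fell by 0.91 (SE 0.15, limma adjusted p = 0.0117). Each of these calls was lost in 2 of those 8 fits, with a limma adjusted p of up to 0.0784 without wild-type replicate 2 for cpr-3 and 0.0508 without wild-type replicate 3 for F41C3.5. After length correction the endoplasmic reticulum chaperone hsp-4 and the small heat shock gene hsp-17 were called lower too, at -0.51 and -0.44, with limma adjusted p-values of up to 0.0983 without wild-type replicate 2 and 0.0934 without unc-120(st364) replicate 3. The pud genes are named for proteins that are abundant in daf-2 mutants. All 4 tested of 6 were above 0 (median 0.82) with an unadjusted p under 0.05, where 146 of all genes tested (2.6%) were higher with such a p. Of these pud-2.1 was called after length correction, at 1.04 (SE 0.23, limma adjusted p = 0.0479), and its call was lost in 7 of the 8 corrected fits that left out 1 library, with a limma adjusted p of up to 0.131 without unc-120(st364) replicate 4. On chromosome V pud-2.1 lies 21722 bases from clec-209, in the stretch described above. The reference gene table gives pud-2.1 and pud-2.2 the same name, so their reads may not have been separated. The pud genes averaged 87.9 (pud-2.1) and 87.7 (pud-2.2) in fhod-1(tm2363).

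The collagen gene col-133 (chromosome IV, 14098325 to 14099368) had levels of 44.2, 12.01, 16.9 and 9.63 in unc-120(st364), against 166.0, 65.6, 58.4 and 53.2 in wild type, and fell by 2.08 (SE 0.41, limma adjusted p = 0.0325). Replicate 1 was the highest library in both groups, and the call was lost in 6 of the 8 fits that left out 1 library, with a limma adjusted p of up to 0.114 without unc-120(st364) replicate 4. Of 65 numbered col genes tested 46 were below 0 with a median of -0.21, which was -0.10 without wild-type replicate 1, and col-133 alone was called. Of the named collagens, which shape the body, 13 of 15 were above 0 with a median of 0.21, among them rol-6 at 0.35 and dpy-7 at 0.24, and none was called. Of the molting and apical matrix genes 19 of 21 were above 0 (median 0.17, none called), and of the hypodermis and seam genes all 11 tested of 18 (median 0.17, none called). The collagen median was 0.07 without wild-type replicate 2, the molting median 0.02 without wild-type replicate 4 and the hypodermis median 0.04 without unc-120(st364) replicate 3. The astacin protease gene nas-3 averaged 19.3 in unc-120(st364), against 10.7 in wild type, and was called higher after length correction at 0.81 (SE 0.18, limma adjusted p = 0.0426), a call lost in 6 of the 8 corrected fits that left out 1 library. In the basement membrane, 9 of 10 tested genes were below 0, with a median of -0.11. That median was -0.05 after length correction, and on deposited levels 0.12 without unc-120(st364) replicate 2. Fibulin, fbl-1, was called lower after length correction, at -0.66 (SE 0.14, limma adjusted p = 0.0383). Its call was lost without unc-120(st364) replicate 3, with a limma adjusted p of 0.120.

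Of 20 tested intestinal genes 15 were below 0, with a median of -0.25, and none was called. The median was -0.08 without unc-120(st364) replicate 2. The intestinal actin act-5, a gene of the microvilli, had 486.6, 406.6, 567.6 and 627.5 in unc-120(st364), against 967.4, 831.7, 779.0 and 651.3 in wild type. Its groups did not overlap, and its log2 fold change of -0.63 missed the threshold with a limma adjusted p of 0.0514 after length correction. The intestinal GATA factor elt-2 was at -0.37 and the protease asp-1 at -0.56. The 8 tested germline genes had a median of -0.21, which was 0.05 without unc-120(st364) replicate 2, and none was called. The major sperm proteins and coelomocyte genes did not pass the filter. The summed level of the intestine list was 2542 to 4159 in unc-120(st364) and 3242 to 5649 in wild type. Its part in the falls of secreted and digestive genes was not tested.

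The housekeeping groups held no called gene. Of all genes tested 0.748% were called, a share at which groups of this size would hold few or none. The 79 tested cytosolic ribosomal protein genes had a median of 0.14, which was 0.06 without wild-type replicate 1, and the 59 mitochondrial ones of -0.02. The 32 proteasome genes were at -0.04 and 34 genes of oxidative phosphorylation at -0.04, of which atp-6 lies on the mitochondrial genome and the others are nuclear. The 14 genes of the mitochondrial genome had a median of -0.34, which was -0.13 without wild-type replicate 1, with 13 below 0. Their summed level ran from 7668 to 21489 in unc-120(st364) and from 13055 to 32295 in wild type, and none was called.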

How the data were processed

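Polyadenylated RNA of whole larvae was sequenced from Illumina TruSeq stranded libraries, per the labels' protocols. Bowtie2 2.2.5, Partek and the build WBcel235 are named in the submitters' processing notes. The deposited table, named as normalized counts by its authors, held length-scaled values proportional to TPM: each column summed to 638200, and low values times exonic length lay on 1 step per library. Read totals are not given. The step put the 8 libraries at about 19.2 to 27.96 M read units, so depth is known only approximately and precision rests on the spread between 4 libraries per group. Whole reads were not recovered, and no counting interval is given.

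Genes reaching 10 in 4 or more of the 8 libraries were fitted as log2(value + 1) with limma 3.58.1 (trend, R 4.3.3) over all 12 libraries with 3 group means. The filter had been written for normalized counts. Folds understate the change of low genes. Length correction subtracted a loess of each library on log2 exonic length. In simulated data on 5617 genes, calls were made for 92% of genes with a log2 change of 1 and for 26% with one of 0.5. There were 5 false calls among 163. The simulated noise was independent between genes, whereas the real libraries shared differences along gene length. These shares therefore may not hold for the deposited levels. Tables were read with Python 3.11.15 and pandas 2.3.3. Positions are those of the deposited table.

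The rule for named genes took unc-120, hlh-1 and hnd-1, the 15 largest rises and falls called, called list members, and in each list the 3 with the smallest p and the 2 most abundant. The text names part of these, and several lists are given by their median alone or not at all. Others, and the stretch of chromosome V, were chosen after their values were seen. Members and lists were chosen with earlier results of these data known, and the lists came from general knowledge of these genes. Alternatives covered the pseudocount, filter, scaling, libraries fitted, trend, replicate block, length and each library left out.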

Additional observations from a re-analysis of the deposited data

Results flagged for a closer look

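Among 200 groups of 4 libraries of the genes named, 9 held 1 library whose gap to the nearest other passed Dixon's 95% critical value for the share of the group's range, which chance passes in about 1 of 20 groups. In unc-120(st364), F35F10.5 was at 31.7 in replicate 1 against 18.3 to 19.0 in the others, ZK6.11 at 339.4 in replicate 1 against 237.5 to 249.2, Y41C4A.32 at 14.8 in replicate 2 against 20.4 to 20.6, and btb-14 at 7.08 in replicate 3 against 9.44 to 9.91. In wild type, replicate 1 was apart for col-133 at 166.0 against 53.2 to 65.6, for fip-1 at 97.9 against 35.8 to 45.9 and for cls-3 at 5.002 against 8.58 to 8.95. Wild-type replicate 4 was apart for C07E3.9 at 14.1 against 9.44 to 10.2, and wild-type replicate 3 for T28A11.16 at 14.2 against 17.5 to 18.2. For C07E3.9 the groups overlapped, and for the other 8 genes they did not. The cause was not tested.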

How the results depend on the processing

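No fit turned the direction of any of the 42 calls. In all 42 the groups did not overlap on deposited levels. Leaving out a library or changing the pseudocount, filter or trend therefore could not turn it. The counts of calls (total, then higher and lower) were 208 (107 and 101) with every gene above 0 in 4 of 8 libraries, 149 (66 and 83) with a value of at least 1, 2 (1 and 1) with a mean of at least 50, where 6 of the 42 genes were left, and 15 (6 and 9) with only the 8 libraries. Length correction gave 98 (33 and 65), and the length slope as a covariate gave 141 (38 and 103). Quantile normalization gave 13 higher and 23 lower. Leaving out 1 library gave 16 to 42 calls, 6 to 18 higher and 10 to 31 lower. Added after seeing the data, length correction without unc-120(st364) replicate 1 or 2 gave 102 (32 and 70) and 80 (19 and 61) calls, without wild-type replicate 1, 3 or 4 it gave 101 (30 and 71), 72 (22 and 50) and 161 (67 and 94), with a lowest count of 52 over all 8, and it gave 59 (17 and 42) with only the 8 libraries.

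Whether same-numbered samples were paired is not known, though the sample titles of the strains share the letters K to N. On deposited levels the deviations of same-numbered libraries correlated at 0.631, -0.271, 0.768 and -0.429. These deviations include the differences in slope on length, so they cannot decide it. With the number as a block 64 genes were called (19 and 45), and with block and length correction together 275 (98 and 177). Without read totals, low genes cannot be given a counting error. List medians moved beyond the spread between replicates in 35 of 1463 comparisons with alternatives.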
